A study of Mus musculus with 12 samples.

Results

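A set of 39 genes that mark T cells was followed in dendritic cells (DCs) sorted from mouse tumors and, beside them, in DCs grown from bone marrow. The members were chosen by symbol, and all 39 were among the 32190 gene symbols of the deposited count tables. They cover the CD3 and zeta chains of the T cell receptor, its proximal signalling proteins, surface and adhesion receptors, costimulatory and inhibitory receptors, GIMAP GTPases, coreceptors, transcription factors, cytokine receptor chains and effector molecules. The series holds 12 libraries in 6 groups of 2. Tumoral DCs came from mice that bore MC38, a mouse colon carcinoma line, and carried a TdTomato reporter of Zbtb46. They were sorted on day 7 (early) or day 14 (late), and their genotype label is WT. Bone marrow-derived DCs (BMDCs) have a label time of 9 days and came from WT mice or from mice labelled Pde5-/-. Part of them received lipopolysaccharide (LPS), a component of bacterial membranes that DCs sense through TLR4, at 200 ng/ml for 12 h, and the rest stayed unstimulated. The reporter marks cells that use Zbtb46, a transcription factor of conventional DCs that endothelial cells also express, and the gate of the sort is not given in the sources used here.

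The T cell receptor recognises peptide on MHC molecules, and it signals through the CD3 chains and the zeta chain, whose tails are phosphorylated by the kinase LCK. Phosphorylated tails recruit the kinase ZAP70, which in turn phosphorylates the scaffold LAT. DCs prime T cells and stay in close contact with them in tumors, and a conventional DC does not use a T cell receptor of its own. Several members are not exclusive to T cells. NK cells share Cd247, Lck, Zap70, Cd226, Tigit, Cd96, Tbx21, Eomes, Ifng and Fasl, a subset of conventional DCs carries CD8 alpha, and activated DCs can express Il2ra and Il7r.

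Total counts ranged from 14.2 to 19.3 M in the tumoral and from 16.1 to 19.7 M in the BMDC libraries. Levels are given in CPM, the count of a gene scaled to the total of its library, and a value with ± is the mean and SD of n = 2 libraries. At these depths 3 counts, taken as the floor of detection for counting error alone, corresponded to 0.152 to 0.212 CPM. Nothing in the labels ties the libraries of a group to separate mice or cultures, so a p-value here reflects the spread between libraries alone, and that spread may be technical. The 12 conventional DC markers summed to 18600 and 23300 CPM early and to 15100 and 19700 CPM late, most of it from H2-Ab1, H2-Aa and Cd74, genes of MHC class II presentation that macrophages and B cells share. Markers more restricted to conventional DCs were present at lower levels, Zbtb46 at 21.8 to 44.1 CPM, Xcr1 at 29.4 to 48.0 CPM and Clec9a at 19.4 to 47.0 CPM over the tumoral libraries. Pde5a, the gene of the knockout label, had 37 to 55 counts in the WT and 47 to 61 counts in the knockout-labelled unstimulated libraries (log2 fold change 0.12, edgeR adjusted p = 0.887). With LPS it had 20 to 52 and 22 to 43 counts (-0.12, edgeR adjusted p = 0.956), so genotypes are given as labelled.

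The upstream windows of 3 members are shown because they precede the upstream start of Lck, a member that passed the edgeR test below, and the starts of the neighbouring chains Cd3g and Cd3d. Lck lies at chr4:129548344-129573641 on the minus strand of GRCm38, Cd3g at chr9:44969572-44980431 on the minus strand and Cd3d at chr9:44981786-44987339 on the plus strand. The starts of Cd3g and Cd3d are 1355 bases apart and point away from each other, and Cd3e follows at chr9:44998740-45009627 on the minus strand. Each window is the 250 bases before a RefSeq start (GRCm38.p6), written 5′ to 3′ on the strand of the gene, and holds 0 annotated exon bases. Capitals mark matches, on either strand, to TGTGGT (the core of RUNX sites), GGAAGT (ETS) and CTTTGA (TCF/LEF), which do not overlap each other here.
Lck, chr4:129573642-129573891, minus strand: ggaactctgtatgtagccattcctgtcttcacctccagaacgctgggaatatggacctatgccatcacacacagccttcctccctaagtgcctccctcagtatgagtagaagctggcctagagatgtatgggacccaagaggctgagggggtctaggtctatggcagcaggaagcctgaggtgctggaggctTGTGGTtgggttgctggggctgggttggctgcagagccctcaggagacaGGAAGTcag
Cd3g, chr9:44980432-44980681, minus strand: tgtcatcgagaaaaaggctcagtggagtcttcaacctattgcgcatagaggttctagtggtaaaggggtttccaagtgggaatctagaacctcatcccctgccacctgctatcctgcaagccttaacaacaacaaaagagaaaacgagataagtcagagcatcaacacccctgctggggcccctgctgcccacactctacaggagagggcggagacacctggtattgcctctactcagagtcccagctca
Cd3d, chr9:44981536-44981785, plus strand: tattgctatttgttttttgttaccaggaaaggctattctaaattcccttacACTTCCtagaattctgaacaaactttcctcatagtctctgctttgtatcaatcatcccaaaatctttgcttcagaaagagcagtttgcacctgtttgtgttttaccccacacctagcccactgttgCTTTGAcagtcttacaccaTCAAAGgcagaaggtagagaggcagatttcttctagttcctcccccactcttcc

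The Lck window held 1 RUNX and 1 ETS match, the Cd3d window 1 ETS and 2 TCF/LEF matches, and the Cd3g window none of the 3 motifs. RefSeq windows were found for 28 of the 39 members, 37 windows in all. The ETS letters stood in 40.5% of these member windows and in 19.7% of all 32851 windows of the same length. The RUNX letters stood in 18.9% against 14.0%, and those of TCF/LEF in 10.8% against 13.8%. These are matches of letters, given as a description with no test.

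Late and early tumoral DCs were compared to see how the sorted cells differed as the tumors progressed. Nearly the whole set lay lower in the late libraries, and all 39 members had enough counts for a test. The CPM of the late libraries lay below those of the early ones for 36 of the 39 members, above them for 0, and overlapped for Tcf7, Foxp3 and Il7r. Of all 13040 genes tested, 28.4% lay lower and 13.7% higher in this way. The median log2 fold change of the members was -2.33, with a range from -3.32 for Lax1 to 1.02 for Il7r, beside a median of 0.01 over all genes tested. A log2 fold change below -1 was found for 34 members and for 8.0% of all genes. In bulk libraries, fewer cells of a type and less RNA of a gene per cell cannot be told apart.

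**Figure D1:**
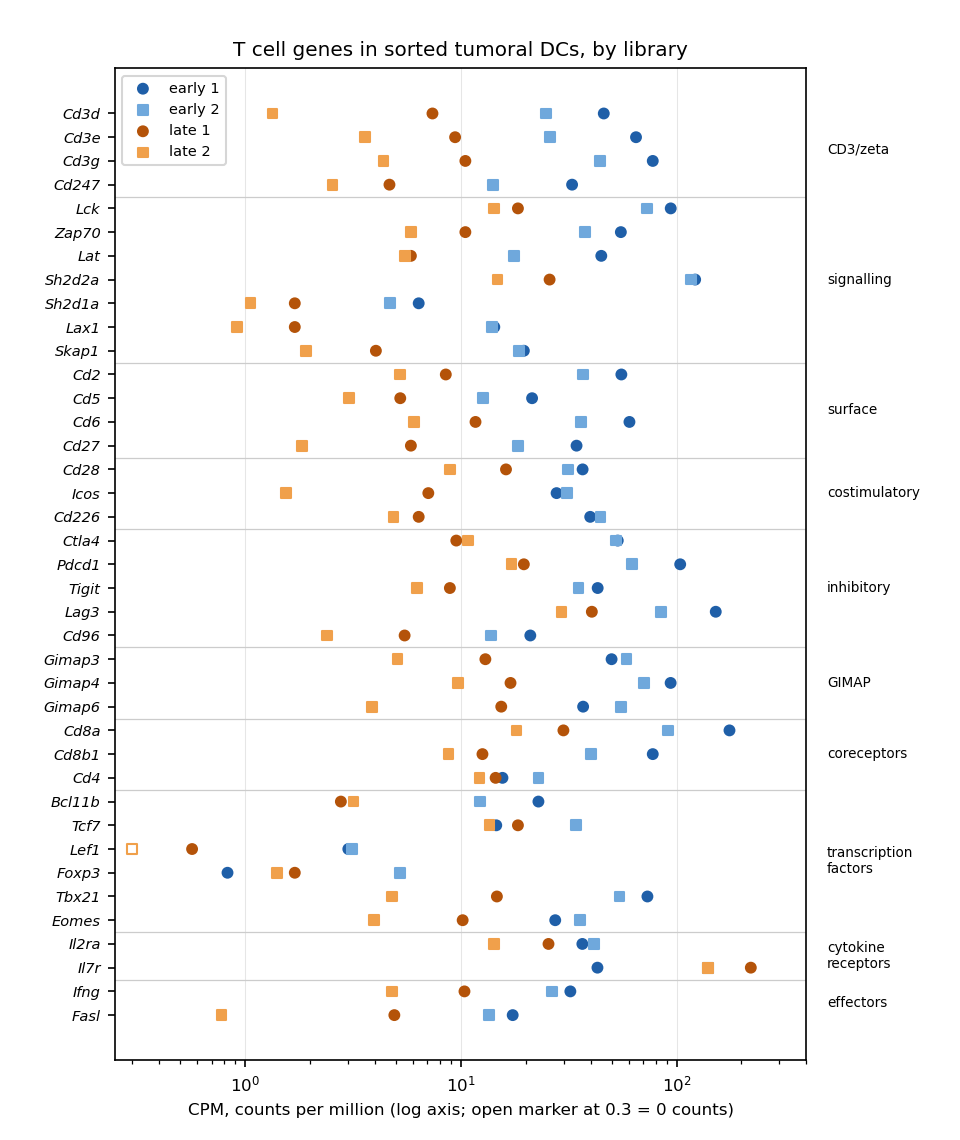
Level of each of the 39 members in the 4 tumoral libraries, in CPM on a log axis, grouped by role; circles are replicate 1 and squares replicate 2 of the early (blue) and late (orange) stage, and the open square marks Lef1 at 0 counts in late replicate 2. The late points lie to the left of the early points for 36 members, and for Il7r the squares of both stages coincide at 140 CPM.

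How many members passed a test depended on the tool. The edgeR quasi-likelihood test, with Benjamini-Hochberg adjustment over all genes at 0.05, called 2 members lower, Lck and Cd226, and 0 higher, beside 0.023% of all genes lower and 0.0% higher. An unadjusted p under 0.05 was reached by 35 members, all lower, beside 7.12% of all genes lower and 3.91% higher. DESeq2 called 32 members lower and 0 higher, beside 1.84% of the genes it adjusted lower and 0.638% higher. The members that passed in neither tool were Sh2d1a, Lef1, Cd4, Tcf7, Foxp3, Il2ra and Il7r. In edgeR the number of members called also changed with the library left out, falling without either late library and rising without either early one. The number of all genes called changed as well, and each of these refits left a stage with 1 library. A member that passed in DESeq2 alone is described below as lower in DESeq2.

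**Figure D2:**
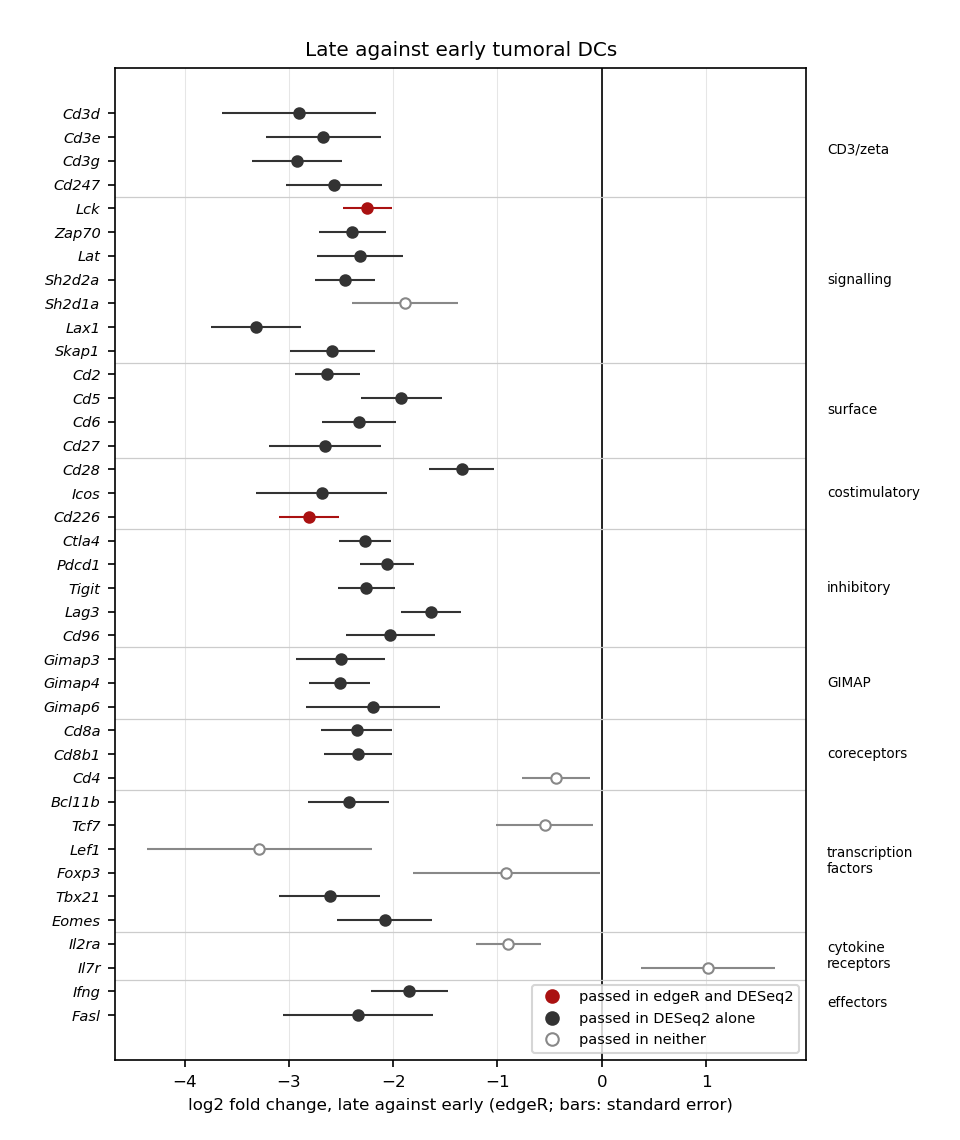
Log2 fold change of each member, late against early tumoral DCs, from edgeR, with its standard error as the bar; red marks genes that passed in edgeR and DESeq2, black those that passed in DESeq2 alone and open grey those that passed in neither. All points but that of Il7r (1.02) lie left of 0.

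The chains that carry the receptor signal were lower as a group. Cd3g was at 77.6 and 44.2 CPM in the early and at 10.5 and 4.38 CPM in the late libraries. Cd3d stood at 46.0 and 24.9 CPM early and at 7.39 and 1.34 CPM late, and Cd3e at 64.9 and 25.9 CPM early and at 9.41 and 3.60 CPM late. Cd247, which encodes the zeta chain, was at 32.8 and 14.1 CPM early and at 4.67 and 2.54 CPM late. Both late libraries lay under both early ones for each chain, and within each stage replicate 1 was the higher. The 4 chains had log2 fold changes of -2.57 to -2.92 and were lower in DESeq2, and 0 of them passed in edgeR, where Cd3g came closest (-2.92, SE 0.43, adjusted p = 0.085) and Cd3d had an adjusted p of 0.290. Their summed level was 165 ± 79.3 CPM early and 21.9 ± 14.2 CPM late, a ratio of 7.54, and the lowest early library held 3.42 times the level of the highest late one. T cell receptor gene segments, 249 symbols picked by name after values had been seen and 133 of them at 0 in all 4 libraries, summed to 148 and 84.8 CPM early and to 22.6 and 12.3 CPM late. Trbc2, a constant segment of the receptor's beta chain, was at 66.0 and 29.9 CPM early and at 9.66 and 5.16 CPM late.

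Lck, the kinase that starts receptor signalling, was at 94.0 and 72.9 CPM in the early and at 18.4 and 14.2 CPM in the late libraries. The mean fell from 83.4 ± 15.0 CPM early to 16.3 ± 2.95 CPM late, with a log2 fold change of -2.25 (SE 0.23, edgeR adjusted p = 0.0444). Zap70, the kinase that docks on the phosphorylated chains, was at 55.2 and 37.7 CPM early and at 10.5 and 5.86 CPM late. Its log2 fold change of -2.39 (SE 0.32) missed the edgeR threshold (adjusted p = 0.0563) and passed in DESeq2. Sh2d2a, a T cell adaptor, was at 122 and 117 CPM early and at 25.8 and 14.8 CPM late (-2.46, SE 0.29, edgeR adjusted p = 0.052). Lax1, a membrane adaptor that dampens lymphocyte receptor signals, had the lowest fold change of the members, from 14.3 and 13.9 CPM to 1.70 and 0.918 CPM. Its replicates were close early and apart late (-3.32, SE 0.43, edgeR adjusted p = 0.0557). Lat, the scaffold, was at 44.8 and 17.7 CPM early and at 5.87 and 5.51 CPM late (-2.31), and Skap1, an adaptor of integrin activation, at 19.6 and 18.6 CPM early and at 4.04 and 1.91 CPM late (-2.58). Both were lower in DESeq2. Sh2d1a, the adaptor of SLAM receptors, was the least expressed of the 7 in the early libraries, at 6.38 and 4.70 CPM. It was at 1.70 and 1.06 CPM late and passed in neither tool (DESeq2 adjusted p = 0.0533).

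The surface receptors Cd2, Cd5, Cd6 and Cd27 all had late levels under their early levels and were lower in DESeq2. Cd2, an adhesion receptor, was at 55.5 and 36.8 CPM early and at 8.52 and 5.23 CPM late (log2 fold change -2.63, SE 0.31, edgeR adjusted p = 0.052). Cd5, an inhibitory coreceptor that B-1 cells share, had the smallest change of the 4 (-1.92, SE 0.39), from 21.4 and 12.7 CPM to 5.24 and 3.04 CPM. Cd6, a relative of CD5, was at 60.5 and 36.2 CPM early and at 11.7 and 6.08 CPM late. Cd27, a costimulatory receptor of the TNF receptor family, lay at 34.4 and 18.4 CPM early and at 5.87 and 1.84 CPM late.

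Among the activating receptors, Cd226 was the member that fell past the edgeR threshold. Its levels were 39.8 and 44.4 CPM early and 6.38 and 4.88 CPM late, which is 42.1 ± 3.22 CPM against 5.63 ± 1.06 CPM and a log2 fold change of -2.81 (SE 0.29, edgeR adjusted p = 0.0444). Early replicates lay close together here and the gap between the stages was several times the spread within them. CD226 activates T and NK cells and competes for its ligands with the inhibitory receptor TIGIT. Icos, the inducible costimulator, was at 27.8 and 31.0 CPM early and at 7.07 and 1.55 CPM late (-2.69, SE 0.63). Cd28, which binds CD80 and CD86 on DCs, changed less, from 36.7 and 31.4 CPM to 16.2 and 8.90 CPM (-1.34, SE 0.31). Both were lower in DESeq2. Cd28 and Icos flank Ctla4 on chromosome 1, where the 3 genes are neighbours.

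All 5 inhibitory receptors were lower in DESeq2, and 0 of them passed in edgeR. Ctla4, which competes with CD28 for its ligands, was at 53.4 and 52.4 CPM early and at 9.53 and 10.8 CPM late, the closest replicates of the group (-2.27, SE 0.25, edgeR adjusted p = 0.052). Pdcd1, which encodes PD-1, was at 104 and 62.4 CPM early and at 19.6 and 17.2 CPM late (-2.06, SE 0.26, edgeR adjusted p = 0.0557). Tigit was at 43.1 and 35.1 CPM early and at 8.90 and 6.29 CPM late (-2.26, SE 0.27, edgeR adjusted p = 0.0549). Lag3, a receptor for MHC class II that plasmacytoid DCs also express, had the smallest change of the 5, from 152 and 84.4 CPM to 40.5 and 29.3 CPM (-1.64, SE 0.28). Cd96, a receptor of T and NK cells that shares a ligand with CD226 and TIGIT, was at 21.0 and 13.8 CPM early and at 5.49 and 2.40 CPM late (-2.03, SE 0.43). For all 5 the late libraries lay under the early ones. Per kilobase of exon, Lag3 was the member with the highest mean level in the early libraries (56.1 CPM per kb), followed by Gimap4 (44.8 CPM per kb), Pdcd1 (43.2 CPM per kb) and Tigit (42.6 CPM per kb). In the late libraries Il7r ranked first (38.7 CPM per kb) and Lag3 next (16.6 CPM per kb).

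The GIMAP genes encode GTPases that support lymphocyte survival and lie in 1 cluster on chromosome 6. Gimap4 was at 93.9 and 70.5 CPM early and at 17.0 and 9.68 CPM late (log2 fold change -2.51, SE 0.29, edgeR adjusted p = 0.052). Gimap3 and Gimap6 were higher in early replicate 2 than in replicate 1, the reverse of the CD3 chains, at 50.0 and 58.6 CPM and at 36.9 and 55.5 CPM. Their late levels were 13.0 and 5.09 CPM and 15.4 and 3.89 CPM, and all 3 members were lower in DESeq2. Of 5 further GIMAP genes all had negative fold changes and 4 were lower in DESeq2, with 0 passing in edgeR. Gimap8 was at 29.0 and 26.2 CPM early and at 6.06 and 0.848 CPM late, and Gimap1 at 23.6 and 16.1 CPM early and at 4.80 and 2.47 CPM late.

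The coreceptors split. Cd8a was at 176 and 91.1 CPM early and at 29.9 and 18.1 CPM late (log2 fold change -2.35, SE 0.34, edgeR adjusted p = 0.0683). Cd8b1, the chain that marks conventional CD8 T cells and that the CD8 of DCs lacks, was at 77.6 and 40.1 CPM early and at 12.6 and 8.76 CPM late (-2.34, SE 0.33, edgeR adjusted p = 0.0586). Both passed in DESeq2, and counts of Cd8a per count of Cd8b1 stayed between 2.06 and 2.38 in the 4 libraries. Cd4 was at 15.6 and 22.9 CPM early and at 14.5 and 12.2 CPM late, levels that lay close together although they did not overlap, and it passed in neither tool (-0.44, SE 0.33, edgeR adjusted p = 0.641). Counts of Cd8a per count of Cd4 were 11.3 and 3.98 in the early and 2.06 and 1.48 in the late libraries.

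The transcription factors split as well. Tbx21 and Eomes, which direct effector programs of T and NK cells, were at 73.3 and 54.4 CPM and at 27.4 and 35.7 CPM early. Late, Tbx21 was at 14.7 and 4.80 CPM and Eomes at 10.2 and 3.96 CPM. Bcl11b, which fixes T cell identity, was at 22.9 and 12.3 CPM early and at 2.78 and 3.18 CPM late, and these 3 genes were lower in DESeq2. Tcf7, which encodes TCF1, a factor of naive and memory-like T cells, was at 14.6 and 34.2 CPM early and at 18.4 and 13.6 CPM late, so that early replicate 1 lay among the late libraries (log2 fold change -0.55, SE 0.46, edgeR adjusted p = 0.696). Foxp3, the factor of regulatory T cells, had 16 and 90 counts early and 27 and 20 counts late (-0.91, SE 0.90, edgeR adjusted p = 0.731). Without early replicate 2 the fold changes of Tcf7 and Foxp3 turned positive, to 0.34 and 1.11. Lef1, a relative of Tcf7, had 58 and 54 counts early (3.01 and 3.14 CPM) and 9 and 0 counts late (0.568 and 0 CPM), and passed in neither tool.

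The cytokine receptor chains passed in neither tool. Il7r, the receptor chain for IL-7, was at 43.0 and 140 CPM early and at 221 and 140 CPM late. It was the member whose fold change was positive, and early replicate 2 reached the level of late replicate 2 (log2 fold change 1.02, SE 0.64, edgeR adjusted p = 0.614). Il2ra, the alpha chain of the IL-2 receptor, was at 36.6 and 41.6 CPM early and at 25.5 and 14.2 CPM late (-0.89, SE 0.31, edgeR adjusted p = 0.372). Both effectors were lower in DESeq2. Ifng, which encodes interferon-gamma, was at 32.2 and 26.4 CPM early and at 10.4 and 4.80 CPM late, and Fasl, the ligand of the death receptor FAS, at 17.4 and 13.5 CPM early and at 4.92 and 0.777 CPM late.

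The 2 libraries of a stage were not equal in T cell transcripts. Early replicate 1 held more CPM than early replicate 2 for 28 of 39 members, with a median ratio of 1.29 and a range from 0.159 for Foxp3 to 2.53. Late replicate 1 exceeded late replicate 2 for 36 of 38 members with counts in both, with a median ratio of 1.78 and a range from 0.874 to 6.34. The share of all genes with replicate 1 above replicate 2 was not counted, so these orders may not be particular to the members. The summed level of all 39 members was 1950 and 1560 CPM early and 657 and 398 CPM late.

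To describe the makeup of the set within a library, each member's count was set against 100 summed counts of the 4 CD3 and zeta chains. On this scale 15 of the 35 members outside the reference were higher in both late than in both early libraries, and the other 20 overlapped. Since the reference itself was lower in the late libraries, 95.7% of all 13040 genes tested were higher in this way, so the count shows members that differed from the reference and not ones that rose. Tcf7 went from 6.58 and 31.3 early to 57.7 and 114 late, Il2ra from 16.6 and 38.1 to 79.8 and 120, and Il7r from 19.4 and 128 to 691 and 1180. Among the coreceptors Cd4 went from 7.05 and 21.0 to 45.5 and 103, while Cd8a went from 79.4 and 83.5 to 93.7 and 152. Lag3 stood at 68.7 and 77.3 early and at 127 and 247 late, and Cd28 at 16.6 and 28.8 early and at 50.6 and 75.0 late. Lck, at 42.5 and 66.8 early and 57.5 and 120 late, overlapped, as did Zap70, Lat, Cd2, Icos, Cd226, Ctla4, Tigit and the GIMAP members. The reference itself was 4270 and 1880 counts early but 506 and 168 counts late, so the late ratios carry the larger counting error, and they were not tested.

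**Figure D3:**
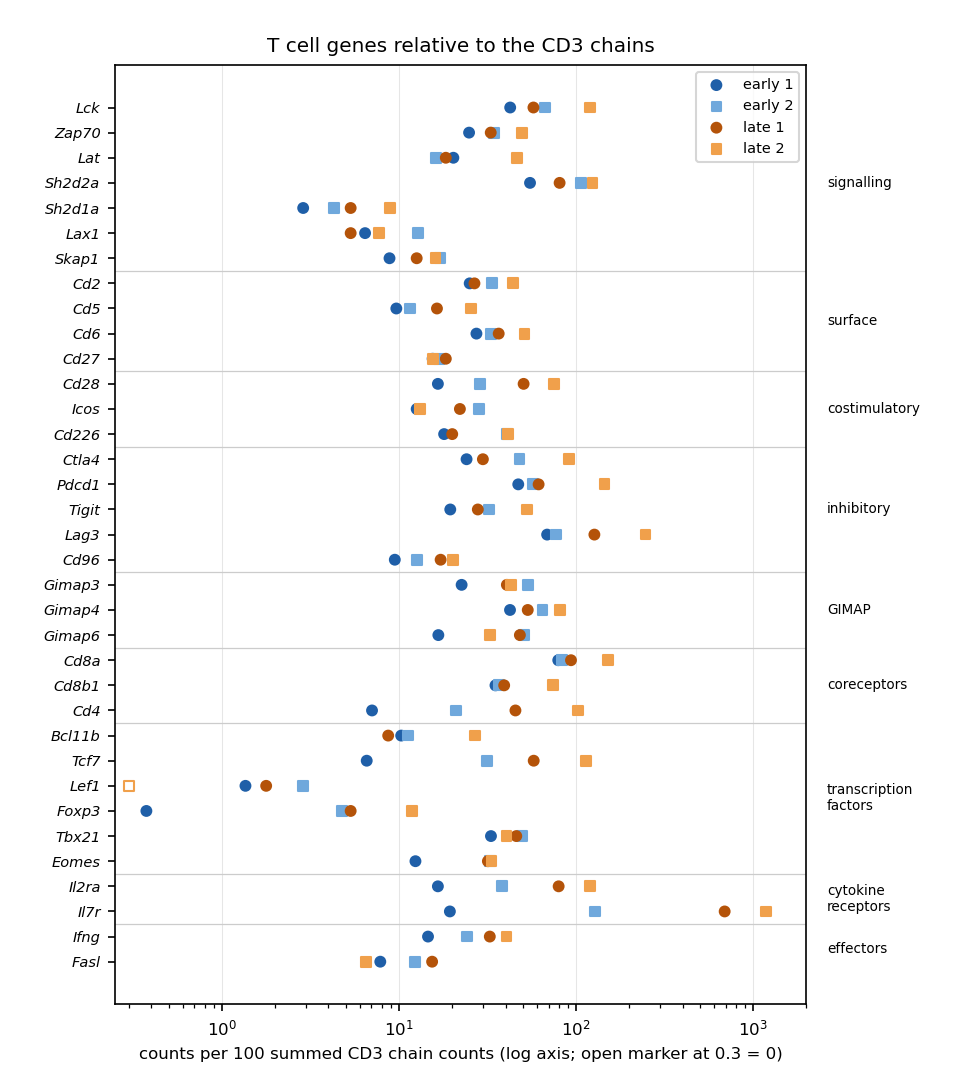
Counts of each member per 100 summed counts of Cd3d, Cd3e, Cd3g and Cd247 in the 4 tumoral libraries, on a log axis, with colors and markers for stage and replicate and the open square for Lef1 at 0. Both late points of Il7r (691 and 1180), Tcf7, Il2ra and Cd4 lie to the right of both early points, while those of Lck, Cd226 and the GIMAP genes overlap.

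Markers of other cell types were measured in the same libraries. Of 14 NK and innate lymphoid markers 13 were tested, and all 13 had negative log2 fold changes with a median of -2.28. They summed to 1260 and 798 CPM early and to 266 and 115 CPM late, with 9 lower in DESeq2 and 0 in edgeR. Gzmb, a cytotoxic granule protease, was at 512 and 210 CPM early and at 65.4 and 15.8 CPM late, and Prf1, the pore former perforin, at 304 and 124 CPM early and at 51.6 and 17.5 CPM late. Ncr1, a defining NK cell receptor, had 195 and 201 counts early and 76 and 13 late. Prf1 was lower in DESeq2, while Gzmb and Ncr1 passed in neither tool (DESeq2 adjusted p = 0.0744 and 0.140). The NK list thus moved with the T cell members, and its part in their change was not tested. Cytotoxic T cells also use many of its genes, Gzmb and Prf1 among them.

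The conventional DC list of 12 genes had a median log2 fold change of -0.26, and the plasmacytoid DC list of 7 one of -0.25, each with 0 genes passing in edgeR and 0 in DESeq2. Of the 12 conventional DC markers 11 had negative fold changes. An unadjusted p under 0.05 in edgeR was reached by 2 of them, both lower, and by 1 plasmacytoid DC marker, which was higher. The 2 lower ones were Clec9a and Irf4. Clec9a was at 36.8 and 47.0 CPM early and at 19.4 and 25.9 CPM late. Irf4 was at 57.3 and 70.3 CPM early and at 38.0 and 26.2 CPM late. The 9 macrophage markers summed to 10200 and 5040 CPM early and to 9250 and 10600 CPM late, so early replicate 2 stood apart. Within them Ly6c2 was lower (DESeq2 log2 fold change -1.30) and Cd68 higher (0.80) in DESeq2. B cell markers summed to 19.2 to 49.9 CPM, and the defining markers Ms4a1 and Pax5 had at most 10 counts in any tumoral library. Other markers of that list were more abundant. Cd79b was at 27.5 and 6.74 CPM early and at 9.41 and 13.4 CPM late. Cd22 was higher in both late libraries, at 19.6 and 8.54 CPM early and at 30.7 and 32.6 CPM late. Neither passed in edgeR or DESeq2. Neutrophil markers summed to 425 CPM in late replicate 1 and to 140 to 167 CPM in the others, with Ly6g at 0 counts in 3 of the 4. Among them Mmp8, a neutrophil collagenase, was higher in DESeq2 (edgeR log2 fold change 2.75), at 4.87 and 16.3 CPM early and at 85.6 and 52.1 CPM late. It was the 1 marker of the 6 tested that lay higher in both late libraries, and it was also at 15.5 to 66.3 CPM in BMDCs. S100a8 was at 5.03 and 9.41 CPM early and at 54.5 and 4.17 CPM late. S100a9 was at 8.71 and 15.5 CPM early and at 91.3 and 4.17 CPM late. Epithelial markers summed to 19.2 to 50.6 CPM, and Krt8, Krt18 and Krt19 had at most 6 counts. Cdh1 (17.8 and 38.7 CPM early, 48.5 and 44.3 CPM late) and Epcam (1.14 and 1.34 CPM early, 2.08 and 2.97 CPM late) lay higher in both late libraries and passed in neither tool. The part of these lists in the change of the members was not tested.

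**Figure D4:**
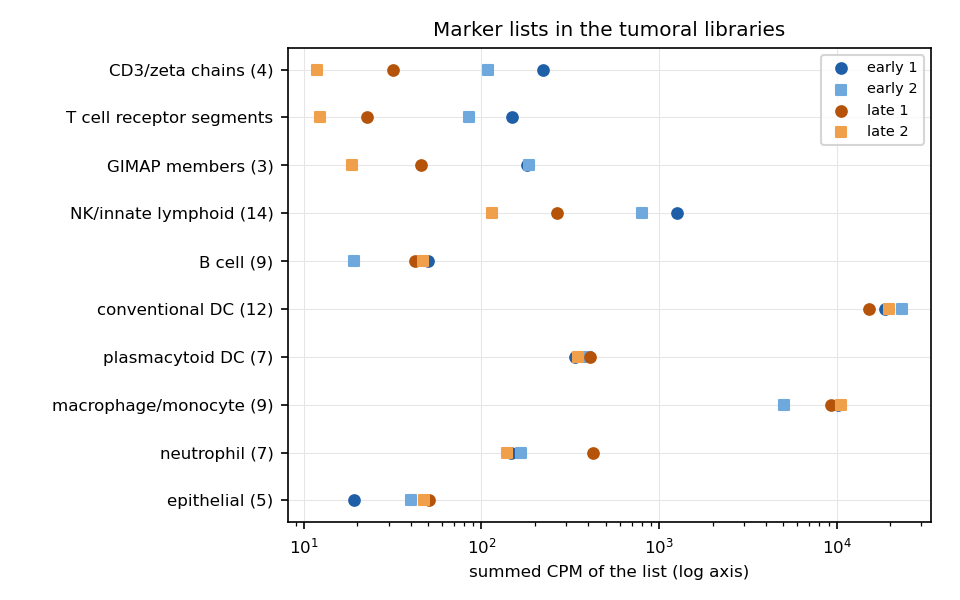
Summed CPM of marker lists in the 4 tumoral libraries, on a log axis, with the number of genes of a list in parentheses; circles are replicate 1, squares replicate 2, blue early and orange late. The CD3, T cell receptor segment, GIMAP and NK lists lie lower in both late libraries, while the levels of both stages overlap for the DC lists.

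Other genes of T cell receptor signalling and costimulation, 45 that are not members, had a median fold change nearer to 0. Of the 41 tested, 38 had negative fold changes with a median of -0.98, and 0 passed in edgeR, where 24 had an unadjusted p under 0.05, all lower. DESeq2 called 13 lower and 0 higher. Ikzf3, a lymphocyte transcription factor, was at 41.7 and 33.4 CPM early and at 7.39 and 3.18 CPM late (-2.73, SE 0.39, edgeR adjusted p = 0.0636), and Tox, a factor of exhausted T cells, at 27.6 and 16.7 CPM early and at 3.98 and 3.89 CPM late (-2.37, SE 0.34, edgeR adjusted p = 0.0586). Some genes of the list are shared by many leukocytes. Csk, the kinase that restrains LCK, was at 308 and 281 CPM early and at 242 and 322 CPM late (0.05, SE 0.24), and Ptprc, which encodes CD45, was at 912 and 1120 CPM early and at 539 and 341 CPM late (-1.13, SE 0.29, edgeR adjusted p = 0.238). In DESeq2 Ikzf3, Tox and Ptprc were lower, Ptprc with an adjusted p of 0.0191.

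In BMDCs most members were low. The 4 CD3 and zeta chains summed to 3.54 to 4.15 CPM in the unstimulated WT and to 8.43 to 11.3 CPM in the other 6 libraries, most of the latter from Cd247, beside 11.9 to 221 CPM in the tumoral libraries. The T cell receptor segments summed to 1.68 to 4.71 CPM over all 8 libraries, beside 12.3 to 148 CPM in the tumoral ones. The tables stem from different experiments, so these levels are given side by side with no test. Of the 39 members 30 had enough counts for a test, and Cd3d, Cd2, Sh2d1a, Tigit, Cd8b1, Lef1, Eomes, Ifng and Fasl did not. Tcf7 (259 to 488 CPM), Il7r (180 to 365 CPM) and Il2ra (27.8 to 317 CPM) reached the highest levels, in an order that differed between groups, and Cd28 (28.1 and 40.5 CPM) was level with Il2ra in the unstimulated WT libraries. Apart from these 3, the other 36 members summed to 74.0 to 102 CPM in the BMDC libraries and to 230 to 1850 CPM in the tumoral ones.

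**Figure D5:**
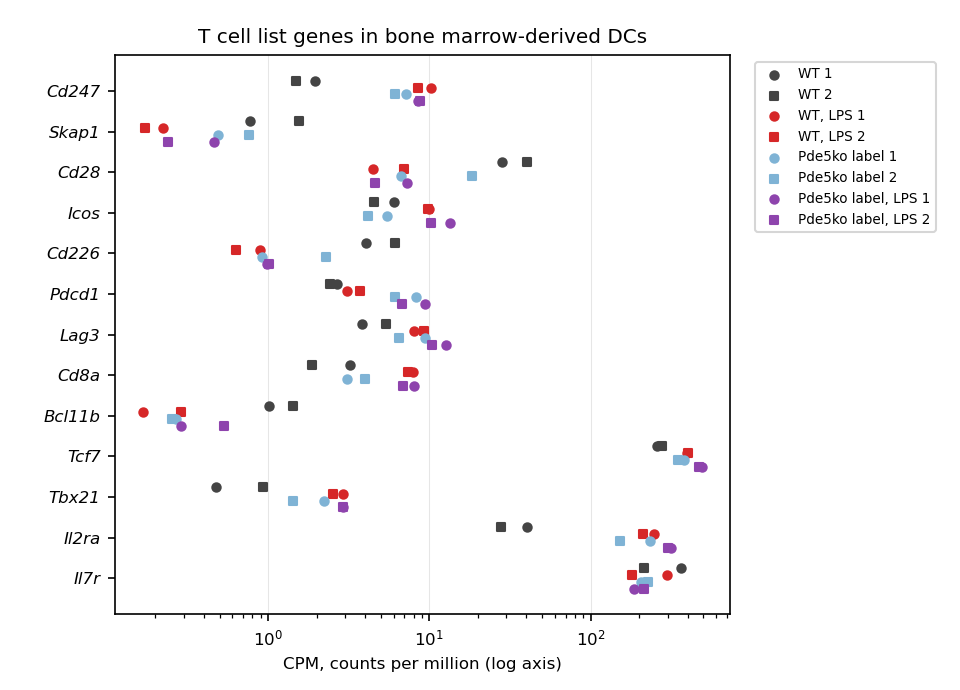
CPM on a log axis of 13 members in the 8 BMDC libraries, the 12 that passed in an edgeR comparison and Il7r; circles are replicate 1, squares replicate 2, and colors give the genotype label and LPS. Il2ra lies at 27.8 and 40.3 CPM in the unstimulated WT libraries and at 151 CPM or more in all others.

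LPS, which matures DCs, changed 11 of the 30 tested members in WT BMDCs by edgeR, 7 higher and 4 lower, beside 20.0% of all 13072 genes higher and 17.6% lower. The median log2 fold change of the members was 0.01, beside -0.02 for all genes. Il2ra rose from 40.3 and 27.8 to 247 and 211 CPM (2.95, SE 0.26, edgeR adjusted p = 0.000419). Cd247 rose from 1.95 and 1.49 to 10.2 and 8.48 CPM (2.63, SE 0.24, edgeR adjusted p = 0.000338). These were the largest of the 7 increases, and in both genes the groups were far apart. Tcf7 rose from 259 and 278 to 393 and 401 CPM (0.77, SE 0.10, edgeR adjusted p = 0.000891), and Cd8a from 3.20 and 1.86 to 7.96 and 7.33 CPM (1.79, SE 0.29). Tbx21 (2.16), Icos (1.10) and Lag3 (1.11) also rose, from levels of at most 6.04 CPM. Cd28 fell from 28.1 and 40.5 to 4.48 and 6.92 CPM (-2.38, SE 0.49, edgeR adjusted p = 0.00922), and Cd226 from 4.03 and 6.14 to 0.897 and 0.635 CPM (-2.51, SE 0.47). Skap1 (-2.30) and Bcl11b (-2.18) fell in edgeR from levels of at most 1.55 CPM to 3 to 5 counts a library, and were not among the 9 members that DESeq2 called. In this contrast DESeq2 called 4464 of the 13072 genes it adjusted. Among 40 tested genes of the wider T cell receptor pathway 10 were higher and 13 lower.

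In the libraries labelled Pde5-/- the same LPS contrast gave 0 calls among the members and among all genes (0.0% higher and 0.0% lower) in edgeR. An unadjusted p under 0.05 was reached by 8 members, all higher, and by 2800 genes, and DESeq2 called 5 members (Cd5, Cd8a, Icos, Il2ra and Tcf7) and 793 genes. Il2ra was at 232 and 151 CPM without and at 317 and 300 CPM with LPS (0.76, SE 0.24, edgeR adjusted p = 0.144). Cd247 was at 7.12 and 6.10 CPM without and at 8.51 and 8.70 CPM with LPS (0.46, SE 0.21, edgeR adjusted p = 0.253).

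Among unstimulated libraries, which include the same WT libraries as the LPS contrast, those labelled Pde5-/- had 6 members higher and 2 lower than WT in edgeR, beside 12.0% and 5.98% of all genes. Il2ra was higher (2.59, SE 0.26, edgeR adjusted p = 0.00143), as were Cd247 (2.04, SE 0.24, edgeR adjusted p = 0.00164), Tbx21 (1.47), Lag3 (0.89) and Tcf7 (0.54). Pdcd1 was at 8.31 and 6.10 CPM in the labelled and at 2.67 and 2.42 CPM in the WT libraries (1.60, SE 0.28, edgeR adjusted p = 0.00694). Cd226 was at 0.917 and 2.29 against 4.03 and 6.14 CPM (-1.55), and Bcl11b at 0.270 and 0.254 against 1.01 and 1.43 CPM (-2.08). Bcl11b rested on 5 counts in each labelled library and was not among the 8 members that DESeq2 called, which included Cd28. Of the 12818 genes it adjusted here, DESeq2 called 2570. Fewer members passed in edgeR without WT replicate 1, WT replicate 2, Pde5-/- replicate 1 or any single LPS library. How many of all genes passed in those refits was not counted. With LPS, 0 members and 0 genes passed in edgeR (0.0% higher and 0.0% lower), where 5 members, all higher, and 1330 genes had an unadjusted p under 0.05. DESeq2 called 150 genes there, Pdcd1 among them as the single member.

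The interaction, which tests whether the LPS effect differed between the genotype labels, called 2 members lower and 0 higher, beside 3.91% of all genes lower and 0.566% higher. They were Cd247 (-2.18, SE 0.32, edgeR adjusted p = 0.0125) and Il2ra (-2.19, SE 0.35, edgeR adjusted p = 0.0206). DESeq2 called the same 2 members, beside 1082 of the 12565 genes it adjusted. Both had started higher in the unstimulated libraries labelled Pde5-/- and ended at 8.48 to 10.2 CPM for Cd247 and at 211 to 317 CPM for Il2ra in all 4 LPS libraries. In edgeR Cd247 and Il2ra no longer passed without WT LPS replicate 1 or without Pde5-/- LPS replicate 1. Fewer members passed without WT replicate 2 or Pde5-/- LPS replicate 2, and more without WT replicate 1 or Pde5-/- replicate 2. How many of all genes passed in those refits was not counted.

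All 39 members matched 1 annotated gene each. The exons of 6 members share bases with another counted gene, so reads there cannot be assigned with certainty. These are Cd247, Lck, Lat, Cd27, Sh2d1a and Foxp3.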

How the data were processed

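The authors deposited whole-number counts of each gene symbol, not normalized, in 1 table for the 4 tumoral and 1 for the 8 BMDC libraries. The submitters' processing notes list featureCounts 2.0.1, HISAT2 2.2.1, fastp 0.12.4 and mm10. Annotation, strand setting and handling of multi-mapping reads: not given in the sources used here. The RNA extraction protocol attached to these samples describes retina, so it was not used. All columns were mapped by name, with 0 left unmapped. The tables were fitted separately with edgeR 4.0.16 in R 4.3.3 (filterByExpr, minimum count 10, TMM scaling, robust glmQLFit, glmQLFTest), on 13040 tumoral and 13072 BMDC genes, with Benjamini-Hochberg adjustment over all of them at 0.05. The standard error is the size of the log2 fold change divided by the root of F. The biological coefficient of variation was 0.278 and 0.138. Alternatives were DESeq2 1.42.0, limma-voom 3.58.1 (tumoral), other scalings and filters, a replicate block and leaving out each library. Positions and exon lengths came from GENCODE M21 (GRCm38, the assembly of mm10). All members were named. For other lists the 4 most abundant genes, the 2 with the smallest p and called genes were picked, and only some of these are named. A few defining markers were added after their values were seen. The members and lists were chosen with earlier results of these data known. The steps were tested on simulated data.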

Additional observations from a re-analysis of the deposited data

Results flagged for a closer look

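By the interaction term in edgeR, 2 of the 30 tested members in BMDCs differed in their LPS response between the genotype labels, both lower. Of all 13072 genes, 3.91% were lower and 0.566% higher by that term. For Cd247 the log2 fold change with LPS was 2.63 in WT and 0.46 in the libraries labelled Pde5-/-, a difference of -2.18 (edgeR adjusted p = 0.0125). For Il2ra it was 2.95 and 0.76, a difference of -2.19 (edgeR adjusted p = 0.0206). Within each label both libraries with LPS were higher than both without it, for both genes. In the libraries labelled Pde5-/- 15 of the 30 tested members were ordered this way, and the share of all genes was not counted. Neither rise passed in edgeR there (adjusted p = 0.253 for Cd247 and 0.144 for Il2ra), while DESeq2 called Il2ra.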

How the results depend on the processing

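For late against early tumoral DCs, edgeR called 3 genes (0 higher), 2 of them members. Genes and members called were 311 and 32 in DESeq2, 0 and 0 in limma-voom, 0 and 0 with DESeq2 size factors in edgeR, 45 (15 higher) and 14 with upper-quartile scaling, 28 (7 higher) and 11 with library size alone, 689 and 35 with no filter, and 0 and 0 with a filter of 10 CPM, where 34 members were tested. Library size alone moved the median of all genes from 0.01 to -0.09. Leaving out 1 library gave 0 to 1063 genes and 0 to 35 members, and a member median of -2.84 to -2.06 (main -2.33). The lone library left in a stage is then assumed to vary like the others. Of 463 member values under these 12 alternatives, 2 changed sign, Tcf7 (0.34, edgeR adjusted p = 0.879) and Foxp3 (1.11, edgeR adjusted p = 0.869), both without early replicate 2, while without early replicate 1 they were at -1.09 and -1.73. The cause of these changes was not tested. The replicate block gave 173 genes and 29 members. The deviations of same-numbered tumoral libraries correlated at -0.04 over the genes tested, so no pairing by number was seen. With 1 difference per stage this cannot exclude a pairing.

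In BMDCs the count for LPS in WT stayed between 8 and 12 (main 11). For LPS in the libraries labelled Pde5-/- (main 0) it was 5 in DESeq2, 4 with no filter, 2 with the replicate block and 0 to 3 without 1 library. For genotype labels without stimulation (main 8) it was 2 to 8 without 1 library, and with LPS (main 0) it was 1 in DESeq2 and 0 without 1 library. The interaction (main 2) gave 1 with no filter and 0 to 4 without 1 library. For these BMDC alternatives other than DESeq2, the number of all genes called was not counted, so these counts of members have no share beside them. The 2 libraries per group limit every comparison, and members under about 1 CPM rest on few counts.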
